A study of Mus musculus with 32 samples.

Results

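The regions described here are stretches of the mouse genome that carried H3K9me3 at birth in both Morc1 genotypes and that, at postnatal day 3, were listed as marked in knockout germ cells but not in heterozygous ones. The autosomes were divided into 1 kb bins counted from position 0, and a bin was called in a peak list when at least 50% of it lay in peaks of that list. Of the 260866 bins called in both P0 lists, 25118 were called at P3 in the knockout list and not in the heterozygous list, and these are termed KO-kept bins. They are 9.63% of the bins called in both P0 lists, and 494208 autosomal bins were called in at least 1 of the 8 lists. These bins were chosen by their measured P0 and P3 calls, so their P0 and P3 values are given as a description. The embryonic lists, the gene positions and the promoter sequences had no part in the choice. The other bins called in both P0 lists serve for comparison: 12662 het-kept bins (called at P3 in the heterozygous list only), 194226 bins kept in both genotypes and 28860 bins lost in both.

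H3K9me3 was profiled by chromatin immunoprecipitation and sequencing in male germ cells isolated from the testis of mice that carry an Mvh-Venus transgene, a fluorescent reporter named after a germ cell gene and present in every group. The groups were Morc1 (+/-) and Morc1 (-/-) animals termed het and KO, taken before birth at E13.5 or E16.5 (days of embryonic development) or after birth at P0 or P3 (postnatal days), with 2 H3K9me3 samples in each group. The controls are therefore heterozygous and not wild type, and the labels do not say whether cells of several animals were pooled. Formaldehyde-fixed, sonicated chromatin went into the immunoprecipitation, followed by a library kit for small amounts of DNA; 16 H3 samples of the same groups entered no comparison.

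The deposited data are 8 lists of peak positions, 1 for each genotype and age, so no replicate error and no test between genotypes can be had from them. On the autosomes the lists held 50191 peaks at E13.5 in het and 55136 in KO, 74722 and 70487 at E16.5, 82082 and 89020 at P0, and 77632 and 82590 at P3. They covered 159.7 Mb (E13.5 het), 181.9 Mb (E13.5 KO), 292.6 Mb (E16.5 het), 268.7 Mb (E16.5 KO), 309.0 Mb (P0 het), 324.0 Mb (P0 KO), 278.0 Mb (P3 het) and 303.8 Mb (P3 KO). The P3 KO list was thus the longer of the P3 pair. The effect of equal list lengths was computed for the number of bins, their embryonic calls, the form of their runs and their share in genes. It was not computed for the other counts, such as those of gene starts, whole peaks, single genes, gene families and windows. Peaks hold no height and no expression, so neither the depth, nor the knockout, nor the identity of the cells could be checked from them. A lower share of cells carrying the mark and a lower level in each cell cannot be told apart in such bulk samples.

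H3K9me3 is the histone mark of heterochromatin and covers repeats, silent gene families and many intergenic regions. Male germ cells that have stopped dividing before birth, termed gonocytes or prospermatogonia, rebuild DNA methylation over their genome in this period. MORC1 is a germ cell ATPase of the MORC family, known for its part in silencing transposons in these cells.

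The promoters of 5 genes are given as examples of gene starts in KO-kept bins. They were picked after their values were seen and do not represent all such starts. The first 4 were covered by peaks at P0 in both genotypes and at P3 in KO only, with no embryonic peak, and the last also carried the mark before birth. Each window runs from 250 bases before the start to 50 bases after it, 5′ to 3′ on the gene's strand, from RefSeq for GRCm38.p6, and CpG dinucleotides are in capitals.
Cyp8b1: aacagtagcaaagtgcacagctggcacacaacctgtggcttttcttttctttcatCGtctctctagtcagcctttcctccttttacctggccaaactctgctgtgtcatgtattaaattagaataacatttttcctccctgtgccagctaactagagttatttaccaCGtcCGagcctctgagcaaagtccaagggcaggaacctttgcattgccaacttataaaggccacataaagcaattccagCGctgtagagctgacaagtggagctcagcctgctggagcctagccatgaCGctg
Acox2: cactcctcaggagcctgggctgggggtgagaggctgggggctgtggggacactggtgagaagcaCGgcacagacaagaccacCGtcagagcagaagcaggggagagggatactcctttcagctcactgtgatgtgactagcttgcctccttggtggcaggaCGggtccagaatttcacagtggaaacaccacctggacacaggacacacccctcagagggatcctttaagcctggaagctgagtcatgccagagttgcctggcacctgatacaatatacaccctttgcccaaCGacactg
Trim30a: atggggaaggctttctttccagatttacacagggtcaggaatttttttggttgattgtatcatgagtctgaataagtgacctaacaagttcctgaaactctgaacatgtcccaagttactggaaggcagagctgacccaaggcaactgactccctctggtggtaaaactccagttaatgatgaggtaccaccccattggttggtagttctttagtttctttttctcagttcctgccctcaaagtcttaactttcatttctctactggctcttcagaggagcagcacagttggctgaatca
Hus1: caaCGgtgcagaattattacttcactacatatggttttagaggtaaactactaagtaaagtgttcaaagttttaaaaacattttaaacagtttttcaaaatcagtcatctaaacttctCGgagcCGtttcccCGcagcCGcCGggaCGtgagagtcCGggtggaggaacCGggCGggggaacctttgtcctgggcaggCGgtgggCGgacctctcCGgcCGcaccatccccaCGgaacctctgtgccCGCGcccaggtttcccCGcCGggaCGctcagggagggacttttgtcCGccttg
Serpinb9e: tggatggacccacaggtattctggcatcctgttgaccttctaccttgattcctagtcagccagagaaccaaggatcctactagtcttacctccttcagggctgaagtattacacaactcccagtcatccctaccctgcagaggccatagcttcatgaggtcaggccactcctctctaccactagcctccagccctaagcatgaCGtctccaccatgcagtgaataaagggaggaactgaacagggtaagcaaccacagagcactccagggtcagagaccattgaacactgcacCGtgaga

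The window of Cyp8b1, which encodes a sterol hydroxylase of bile acid synthesis, lies at chr9:121916256-121916555 on the minus strand. The window of Acox2, a peroxisomal oxidase that acts on bile acid intermediates, is chr14:8258970-8259269 (minus strand). Trim30a, of the TRIM family of ubiquitin ligases, has its window at chr7:104465144-104465443 (minus strand), with 0 CpG. For Hus1, a subunit of the DNA damage checkpoint clamp, the window is chr11:9011142-9011441 (minus strand) and holds 21 CpG. In each of these 4 windows peaks covered 0 of 300 bp in all 4 embryonic lists, 300 bp in P0 het, 300 bp in P0 KO, 0 bp in P3 het and 300 bp in P3 KO. Serpinb9e, of a family of intracellular serine protease inhibitors, has its window at chr13:33249358-33249657 (plus strand). Peaks covered all 300 bp of it in every list but E13.5 het and P3 het, where they covered 0 bp.

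These promoters belong to a small group. Of 20084 protein-coding gene starts in RefSeq, 92 (of 89 genes) lay in KO-kept bins, beside 18 in het-kept bins, 552 in bins kept in both and 65 in bins lost in both. No embryonic list had a call at 24 of the 92 (26.1%), so most of the promoters shown above are not typical in this respect. The starts in KO-kept bins were poor in CpG. Their median GC content was 41.7% and their median number of CpG 1, against 57.0% and 14 over all starts. The window of Hus1 was the 1 with at least 15 CpG, or 1.09% of the 92, against 0.725% of the starts in bins kept in both, 16.9% in bins lost in both and 48.1% of all starts. The letters TATAAA, searched on both strands, were found in 30 of the 92 windows (32.6%) and in 12.7% of all windows of that length. The letters CACGTG, which read the same on both strands, were found in 2.17% of the 92 and in 7.89% of all. Bins kept in both had shares of 37.1% for TATAAA and 1.27% for CACGTG, so low CpG and these letters were shared by starts that stayed called in both genotypes.

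Olfactory receptor genes made up 23 of the 92 starts (25%) and vomeronasal receptor genes 8 (8.70%), while these families were 4.69% and 1.61% of all starts. Both families detect odours and pheromones, lie in clusters and are mostly silent outside sensory neurons. Both held larger shares of the starts in bins kept in both (30.3% and 10.5%) and of the 18 in het-kept bins (55.6% and 11.1%). The 92 starts fell into 2 kinds. The 22 starts in runs with no P3 het call beside them (adjacent KO-kept bins form a run) had 1 olfactory receptor gene and no vomeronasal one, a median GC content of 47.0%, and 13 of them (59.1%) carried no call in any embryonic list. The other 70 starts, at an edge of a P3 het call, had 22 olfactory and 8 vomeronasal receptor genes, a median GC content of 39.5% and 11 (15.7%) with no embryonic call. Cyp8b1, Acox2 and Trim30a are of the first kind, Hus1 and Serpinb9e of the second.

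Of 919 miRNA hairpins in RefSeq, 2 lay in KO-kept bins, 1 in het-kept bins, 40 in bins kept in both and 2 in bins lost in both. The mature sequence of 1 of the 2 is shown with its seed (bases 2 to 8) in capitals.
mmu-miR-6342: cAGCAGCAaucuggucuuugag
Its hairpin, Mir6342, is at chr1:29421488-29421612 on the plus strand. The 1 kb bin that holds it was covered over its whole length (1.00 kb) in all lists but P3 het, where peaks covered 0 kb.

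Most KO-kept bins had carried H3K9me3 before birth, at E16.5 more often than at E13.5. The E13.5 het list held 27.2% of them (6843 bins), against 47.9% of all bins called in both P0 lists. E13.5 KO held 32.4% (8139 bins; 51.5% of all), E16.5 het 66.3% (16644 bins; 79.6% of all) and E16.5 KO 62.4% (15680 bins; 77.4% of all). In 28.4% (7122 bins; 16.3% of all) no embryonic list had a call, in 22.1% all 4 did, and in 26.5% both E16.5 lists and neither E13.5 list did. KO-kept bins were thus called in the embryo less often than P0 bins in general, and those called were mostly called by E16.5: 1.37% were called at E13.5 and in no E16.5 list.

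Against the other classes, KO-kept bins stood between bins kept in both and bins lost in both at E16.5. At E16.5 het 86.6% of the bins kept in both were called, 71.8% of the het-kept bins, 66.3% of the KO-kept bins and 47.7% of the bins lost in both. KO-kept bins exceeded the bins lost in both on 19 of 19 autosomes there and lay below the bins kept in both on 19 of 19. At E13.5 they were close to the bins lost in both, with 27.2% against 24.9% in het (higher on 15 of 19 autosomes) and 32.4% against 31.1% in KO (higher on 12 of 19).

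The het-kept bins, which went the opposite way at P3, were called more often in the embryo: 38.9% in E13.5 het, 43.5% in E13.5 KO, 71.8% in E16.5 het and 67.6% in E16.5 KO. They exceeded the KO-kept bins on 19 of 19 autosomes in both E13.5 lists, on 18 in E16.5 het and on 17 in E16.5 KO. No embryonic list called 21.1% of them, a lower share than in KO-kept bins on 19 of 19 autosomes. When the longer list at each age was reduced to its longest peaks until both genotypes covered the same length, the order held at E13.5 (29.0% of KO-kept against 38.8% of het-kept bins in het, 31.2% against 34.6% in KO). It turned at E16.5 het, with 65.6% of KO-kept against 62.8% of het-kept bins, and held at E16.5 KO, with 65.0% against 69.0%. With the 4 embryonic lists all reduced to the length of the shortest of them, and the 4 postnatal lists likewise, it turned in both E16.5 lists, with 45.2% against 39.4% in het and 45.4% against 40.5% in KO.

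In the lists as deposited, the genotype difference before birth had the same sign in every class, and this depended on list length. At E16.5 the het list called 3.84 percentage points more of the KO-kept bins than the KO list (0.774 to 6.17 over autosomes), and 4.20 points more of the het-kept bins, 1.958 of those kept in both and 1.91 of those lost in both. The E16.5 het list was also the longer of its pair. With equal lengths at each age the difference, het minus KO, was 0.645 points in KO-kept bins, -6.23 in het-kept bins, -0.354 in those kept in both and -3.87 in those lost in both. At E13.5 the sign was the opposite, with 5.16 points more of the KO-kept bins in KO than in het, and the KO list was the longer. With equal lengths at each age the E13.5 difference, het minus KO, was -2.20 points in KO-kept bins and -2.25 in those lost in both, against 4.15 in het-kept bins and 0.494 in those kept in both.

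**Figure D1:**
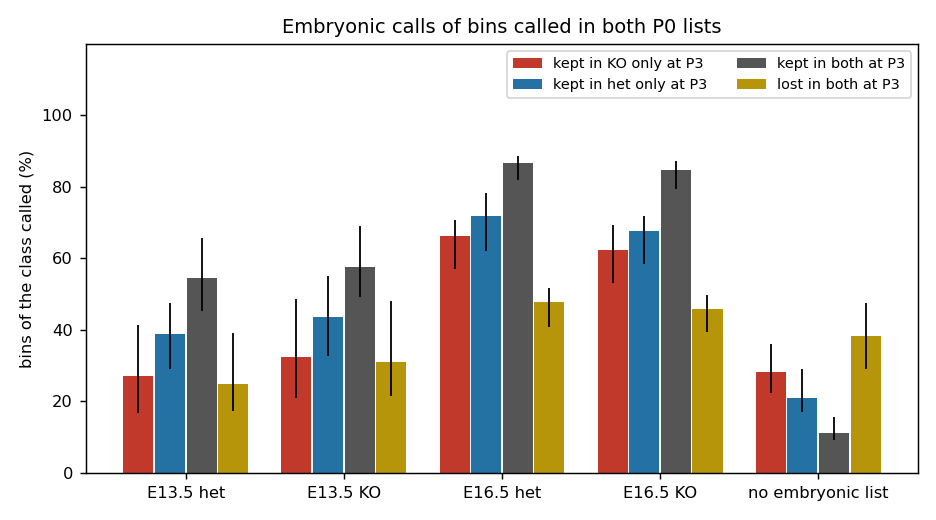
Share of bins (vertical axis, %) called in each embryonic list or in none of them, for the 4 classes of bins called in both P0 lists; black lines span the lowest and the highest of the 19 autosomes. KO-kept bins (red) reach 66.3% at E16.5 het, between bins lost in both (47.7%) and bins kept in both (86.6%).

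At P0 and P3 the calls chose the bins, and the covered length shows how sharp that choice was. KO-kept bins were covered on average over 889 bp in P0 het, 937 bp in P0 KO, 125 bp in P3 het and 885 bp in P3 KO. In 14887 of them (59.3%) the P3 het list had no base pair at all, while 1878 (7.48%) had 450 to under 500 bp and lay just inside the rule. A further 2294 bins with 500 to under 550 bp in P3 het lay just outside it. Most KO-kept bins are therefore empty in P3 het rather than close to the limit of 50%.

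KO-kept bins outnumbered het-kept bins 1.98 to 1 (1.65 on chromosome 5 to 2.46 on chromosome 11), with a ratio over 1 on 19 of 19 autosomes. Their share of the bins called in both P0 lists ranged from 8.78% on chromosome 15 to 10.5% on chromosome 19, so no autosome stood apart. This ratio went with list length: the P3 KO list covered 303.8 Mb and the P3 het list 278.0 Mb. With equal peak numbers the ratio was 1.85, and with equal covered lengths at each age it was 1.20.

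The KO-kept regions were short. They formed 19436 runs, of which 15092 (77.7%) were 1 kb long, 3381 were 2 kb and 963 (4.95%) were 3 kb or longer, and the longest was 9 kb. Het-kept bins had a like shape, with 6.499% of 9463 runs at 3 kb or longer, whereas 46.0% of the 58520 runs kept in both were that long. Of the KO-kept runs, 5421 (27.9%) made up a whole P0 run (adjacent bins called in both P0 lists), 11152 (57.4%) lay at an end of one, and 2863 (14.7%) lay inside one.

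Short P0 runs held KO-kept bins more often than long ones. In P0 runs of 1 kb 19.97% of bins were KO-kept, in those of 2 to 3 kb 13.1%, in those of 4 to 9 kb 7.66% and in those of 10 kb or more 5.94%. Het-kept shares had the same order, from 7.66% to 3.30%, as did the shares lost in both, from 28.1% to 7.29%. In P0 runs of at least 3 bins, 11.8% of end bins and 5.40% of inner bins were KO-kept, and 6.84% and 2.99% were het-kept. Narrow P0 sites and the ends of P0 runs thus differed in call at P3 more often in both directions.

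**Figure D2:**
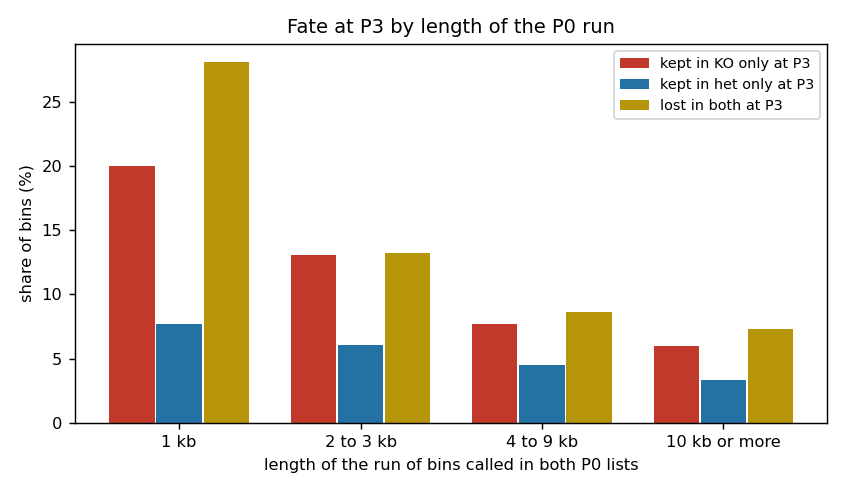
Share of bins (vertical axis, %) that were KO-kept, het-kept or lost in both at P3, by the length of the run of bins called in both P0 lists (horizontal axis). KO-kept bins go from 19.97% in runs of 1 kb to 5.94% in runs of 10 kb or more.

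Whole P0 peaks gave a view that needs no bins. Among 72541 peaks of the P0 het list that touched a P0 KO peak, 6900 (9.51%) touched a P3 peak in KO only and 2619 (3.61%) in het only. For peaks of 3 kb or more in this list the order was the reverse, with 1.38% in KO only and 3.34% in het only. Among 71597 peaks of the P0 KO list that touched a P0 het peak, 6619 (9.24%) touched a P3 peak in KO only and 2810 (3.92%) in het only. In that list peaks of 3 kb or more kept the order, with 2.77% in KO only and 0.994% in het only. For long peaks the direction thus depended on whose P0 peaks were followed.

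Loss in P3 het took 2 forms, at the border of a region that stayed marked and over a site as a whole. In 11862 runs (61.0%) the P3 het list had a call in the bin on 1 side, and in 1131 (5.82%) on both sides. In the other 6443 runs (33.2%; 28.8% to 38.4% over autosomes), with 8224 bins, the bins on both sides were free of P3 het calls. These runs held no P3 het base pair. Het-kept runs had no P3 KO call beside them in 29.3%. That order depended on list length: with equal covered lengths at each age the share was 19.5% of KO-kept and 58.2% of het-kept runs.

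In the lists as deposited, sites with no P3 het call beside them were called less often in the embryo than edges. They also lay more often in genes. Of the 8224 bins in such runs, 18.8% were called in E13.5 het, 22.9% in E13.5 KO, 56.4% in E16.5 het and 52.2% in E16.5 KO, and 38.6% in no embryonic list. Of the 16894 bins in runs at an edge, 31.4%, 37.0%, 71.1% and 67.4% were called in these lists and 23.4% in none. Protein-coding gene bodies held 27.9% of the first and 19.0% of the second. Het-kept bins had the same order, with 31.3% of isolated and 42.3% of edge bins called in E13.5 het, 28.6% and 17.6% called in no embryonic list, and 18.6% and 15.8% in genes. The surroundings differed too, since 10 to 20 kb from the centre of such a site 13.47% of bins were called in P3 het and 15.4% in P3 KO, against 21.3% and 23.4% around edges. Over all autosomal bins these lists called 11.3% and 12.3%, so both surroundings lay above the level of the genome, those of edges by more. The order was the same at E16.5, where the het list called 16.6% around such sites, 27.5% around edges and 11.9% over all autosomal bins. The E16.5 KO list called 15.2%, 25.7% and 10.9%. None of these comparisons of sites and edges was recomputed at equal list lengths.

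**Figure D3:**
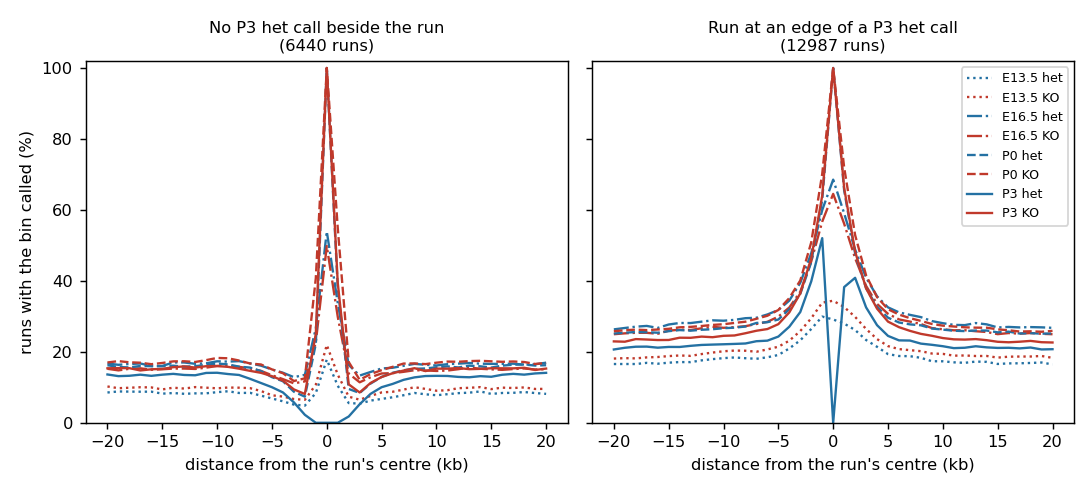
Share of KO-kept runs (vertical axis, %) with a called bin at each distance in kb from the run's centre, for the 8 lists (blue het, red KO), in runs with no P3 het call beside them (left) and runs at an edge of a P3 het call (right). The P3 het line drops to 0 at the centre by the choice of bins and reaches 13.47% and 21.3% on average 10 to 20 kb away; in runs of even length the centre is the left of the middle bins.

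The 12 longest runs show single loci. Run 1, chr1:30104001-30113000 in mm10, is 9 kb of intergenic sequence between Gm597 and Phf3, of which peaks covered 7.51 kb at E13.5 in het and 4.33 kb in KO, all 9 kb in both E16.5, both P0 and the P3 KO lists, and 0 kb in P3 het. It lay at an edge, with the nearest P3 het peak 0.0410 kb away. The run at chr13:61283001-61292000, also 9 kb, lies between the cathepsin genes Cts8 and Cts7, which belong to a cluster active in the placenta. At E13.5 its covered length was 3.73 kb (het) or 6.06 kb (KO), at E16.5 9 kb and 8.09 kb, at P0 8.69 kb and 8.63 kb, and at P3 0 kb and 8.58 kb. In both loci the mark was in place by E16.5 in both genotypes, and P3 het alone of the 8 lists was empty.

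The most secluded of the runs described was the 8 kb run at chr12:54867001-54875000, between Cfl2, which encodes the muscle form of the actin-severing protein cofilin, and Baz1a, a subunit of chromatin remodelling complexes. The nearest P3 het peak was 26.0 kb away. Its covered length at E13.5 was 3.25 kb (het) or 4.11 kb (KO), at E16.5 7.12 kb and 7.49 kb, at P0 8 kb in both, and at P3 0 kb and 8 kb.

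Another pattern was that of the 6 kb run at chr4:5598001-5604000, 40.01 kb before Fam110b, where the mark was mostly postnatal. Peaks covered 0 kb in both E13.5 lists, 1.69 kb (het) or 1.46 kb (KO) at E16.5, 6 kb in both P0 lists and P3 KO, and 0.0990 kb in P3 het. The run at chr2:36883001-36889000, 0.911 kb before the olfactory receptor gene Olfr353, was covered over 6 kb in every embryonic list, over 5.98 kb (het) or 6 kb (KO) at P0, and at P3 over 0.284 kb in het against 6 kb in KO. One of the 12 runs lay in a protein-coding gene, at chr7:57224001-57232000 in Gabrg3. Of its 8 kb, the E13.5 peaks covered 4.04 kb (het) or 4.85 kb (KO), and peaks covered all of it in both lists at E16.5 and P0, 0.479 kb in P3 het and all of it in P3 KO. Over all 71 runs of 5 kb or more, 11 overlapped a protein-coding gene, 64 were covered over at least 50% in E16.5 het and 62 in E16.5 KO, but 33 in E13.5 het and 38 in E13.5 KO. In 5 of the 71 no embryonic list reached 50%.

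**Figure D4:**
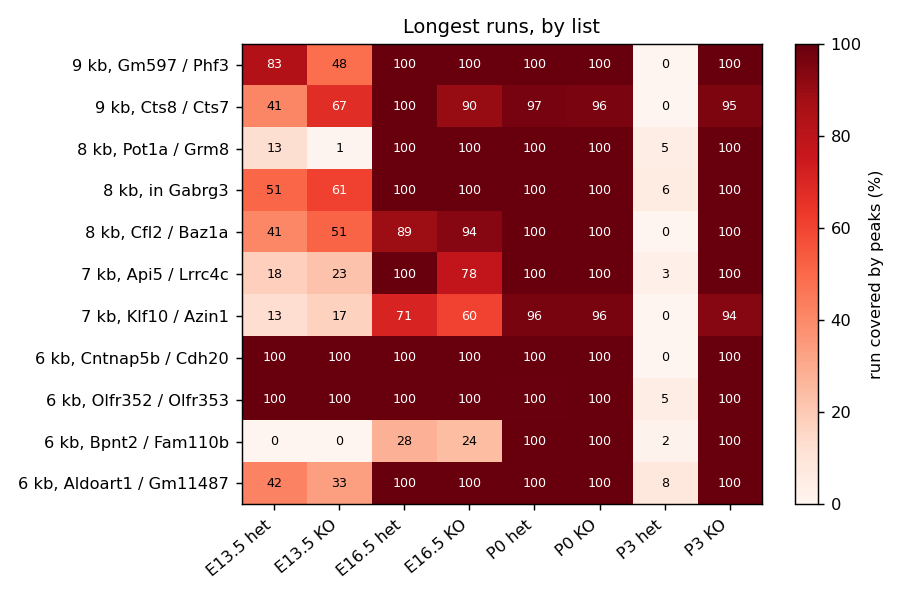
Percent of each of 11 of the 12 longest KO-kept runs covered by peaks (colour and printed number) in each of the 8 lists; rows give the run's length and its neighbouring genes or host gene. Coverage in P3 het is at most 8%, as the choice of bins demands, and E13.5 ranges from 0% to 100%.

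KO-kept bins lay in protein-coding genes somewhat more often than the other P0 bins. Of the 25118, 5496 had their midpoint in such a gene (21.9%; 95% Wilson interval 21.4% to 22.4%, counting error only). The shares were 16.6% of het-kept bins, 19.9% of bins kept in both and 19.0% of bins lost in both. KO-kept bins were higher on 18 of 19 autosomes than het-kept bins and on 16 than each of the others. All 4 shares were under the 39.98% of all autosomal bins that lie in such genes, so H3K9me3 at P0 lay mainly outside them. With equal covered lengths at each age the shares were 20.9% and 18.5% for KO-kept and het-kept bins.

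Of 20661 autosomal protein-coding genes, 2455 held a KO-kept bin and 1090 a het-kept bin. Among 363 genes with at least 5 bins of the 2 classes together, 282 had more KO-kept, 64 more het-kept, and 17 as many of each. These counts were not recomputed at equal list lengths. The 12 genes with the most KO-kept bins were long, and the rank by number of bins favours long genes. It also favours genes with more calls in P3 KO than in P3 het. Khdrbs2, an RNA-binding splicing regulator at chr1:32172602-32705224, had 38 KO-kept and 9 het-kept bins of 532. Its called bins numbered 99 in E13.5 het, 94 in E13.5 KO, 285 in E16.5 het, 235 in E16.5 KO, 147 in P0 het, 138 in P0 KO, 81 in P3 het and 160 in P3 KO. Over the whole gene, called bins were thus fewer at P3 than at P0 in het and not in KO, and all postnatal values were under those of E16.5.

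Csmd1, a large membrane protein that regulates complement, and Dpp10, an auxiliary subunit of Kv4 potassium channels, had 28 KO-kept against 7 het-kept and 30 against 11. Csmd1 had 326 called bins in P0 het, 400 in P0 KO, 320 in P3 het and 465 in P3 KO. Dpp10 had 211, 283, 173 and 271 in the same lists. Both genes thus had the larger number in KO already at P0, and the P3 gap was larger than the surplus of KO-kept over het-kept bins. Gabrg3, the γ3 subunit of the GABA-A receptor, had 21 KO-kept and 2 het-kept bins, with 140, 158, 124 and 155 called bins. Anks1b, a synaptic ankyrin-repeat protein, had 19 and 1, with 100, 117, 94 and 112.

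Other long genes exchanged bins in both directions. Naaladl2, a relative of a glutamate-releasing peptidase, had 29 KO-kept and 20 het-kept bins, and its called bins numbered 294 in P0 het, 268 in P0 KO, 220 in P3 het and 224 in P3 KO. Sntg1, a syntrophin of the dystrophin complex, had 30 and 20, with 297, 292, 209 and 218. Galntl6, of the enzymes that start O-linked glycans, had 21 and 9, yet its P3 totals were 112 in het and 109 in KO. In these genes the P3 totals were close and the genotypes differed in which bins were called. The 4 others among the 12 were Skint6 (27 KO-kept, 7 het-kept), Fstl5 (22 and 12), Cntnap2 (21 and 13) and Ctnna3 (19 and 5).

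Among further genes of at least 20 kb, KO-kept bins took the largest share of Cyp3a59 (9 of 36 bins, 25%) and Vmn2r59 (10 of 47, 21.3%). Cyp3a59, a cytochrome P450 of the family that oxidises drugs and steroids, had 36 called bins in both E13.5 lists, 34 in E16.5 het, 36 in E16.5 KO, 35 in P0 het, 36 in P0 KO, 10 in P3 het and 17 in P3 KO. It was marked over its whole length until P0 and lost most of the mark by P3 in both genotypes, with more left in KO. Cyp3a25, beside it, had 33 called bins in each P0 list, 16 in P3 het and 19 in P3 KO, and it had 7 KO-kept and 4 het-kept bins. The window chr5:145000001-146000000, which ends inside Cyp3a25, went the other way, with 25 KO-kept and 40 het-kept bins. It holds other Cyp3a genes and genes of other families, and was among the 5 windows of 1 Mb with the largest het-kept surplus. The KO-kept surplus of Cyp3a25 thus did not hold for this window. Vmn2r59, a vomeronasal receptor gene, had 30 called bins in both P0 lists, 18 in P3 het and 28 in P3 KO, with no het-kept bin.

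Genes of smaller families followed with similar shares. Akr1c6, a hydroxysteroid dehydrogenase, had 5 KO-kept of 24 bins, and 18, 18, 13 and 18 called bins in P0 het, P0 KO, P3 het and P3 KO. Clec4b1, a C-type lectin receptor of myeloid cells, had 4 of 22, and Klra4, a receptor of natural killer cells, 4 of 23. Gm5155 had 8 of 47 and 9130409I23Rik 4 of 25, and none of these 5 genes had a het-kept bin. Several belong to clusters of near-identical copies, where the placement of reads is uncertain; how such reads were treated is not given in the sources used here.

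**Figure D5:**
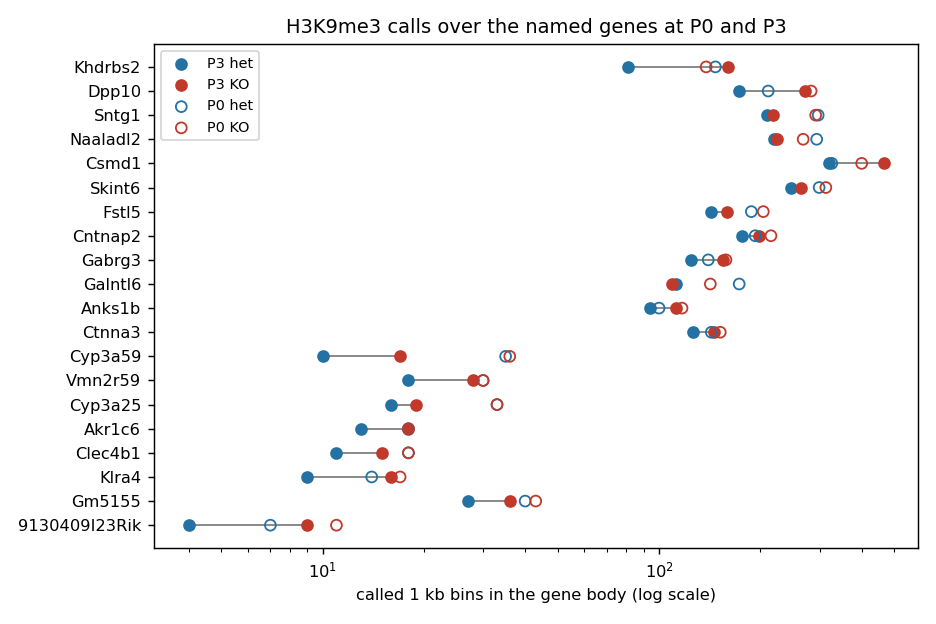
Called 1 kb bins in the gene body (horizontal axis, log scale) at P0 (open circles) and P3 (filled circles) in het (blue) and KO (red) for the 12 genes with the most KO-kept bins and the 8 further genes with the largest share of them; grey lines join the P3 values. P3 KO exceeds P3 het in every gene shown but Galntl6 (109 against 112), an order that the choice of genes by their KO-kept bins favours.

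In the gene families described, the KO-kept share of P0-called bins ranged from 6.58% to 15.4%, around the 10.6% of all P0-called bins in protein-coding genes, where KO-kept bins outnumbered het-kept bins 2.61 to 1. Vomeronasal receptor genes had 127 KO-kept bins of 997 (12.7%) and 40 het-kept bins, in 60 and 22 of 354 genes. Olfactory receptor genes had 51 of 535 (9.53%) and 30. Zinc finger genes named Zfp, many of which encode repressors of transposons, had 74 of 623 (11.9%) and 25, led by Zfp804b with 18. Clustered protocadherin genes, neuronal adhesion molecules whose gene bodies overlap, had 8 KO-kept bins of 52 (15.4%) and no het-kept bin, 7 of the 8 within Pcdha1. Gm37013, a gene not in this list that spans chr18:36952648-37841873 across the cluster, had 18 KO-kept and 9 het-kept bins. The lack of het-kept bins thus held for the listed gene bodies and not for the whole cluster.

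The GABA-A receptor genes had 33 KO-kept bins of 280 (11.8%) against 4 het-kept, of which Gabrg3 gave 21, and ionotropic glutamate receptor genes 46 of 395 (11.6%) against 15. Classical and related cadherin genes had 43 of 492 (8.74%) against 48 het-kept, and Eph receptor and ephrin genes 15 of 141 against 16, the 2 families in which het-kept bins were more numerous. Genes for germline and meiotic functions had 5 KO-kept bins of 76 (6.58%) against 4, namely 4 in Zbtb16, a factor of spermatogonial progenitors, and 1 in Dmc1, the meiotic recombinase. Genes of heterochromatin and H3K9 methylation had 8 of 67 against 0, among them 3 in Smchd1, a silencing factor of the inactive X chromosome, and 2 in Mecom. Serpin genes had 9 of 96 against 0, with 3 in Serpinb9e. No family list was tested or recomputed at equal list lengths, and the lists with few bins rest on single genes.

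Along the genome KO-kept bins were spread widely. Of 2394 windows of 1 Mb with a bin called in both P0 lists, 2361 held a KO-kept bin (median 8, highest 72). More KO-kept than het-kept bins were held by 1922 windows, fewer by 327 and as many by 145, in the lists as deposited. The largest surplus was at 19 to 20 Mb of chromosome 17, with 72 KO-kept and 18 het-kept bins, where the window holds the pheromone receptor genes Vmn2r98 to Vmn2r103. That window had 619 bins called in both P0 lists, so its KO-kept share of 11.6% was near the 9.63% of all such bins, and the rank by surplus follows in part how many P0 bins a window holds. The fifth window by surplus was at 23 to 24 Mb of chromosome 3 (66 and 18, a KO-kept share of 15.3%). It holds only a part of Naaladl2 (chr3:23798103-25144149), which had 29 KO-kept bins over its whole length. The opposite extreme was at 28 to 29 Mb of chromosome 12, with 12 and 31, where the KO-kept share was 10.2% of 118 bins. The window at 32 to 33 Mb of chromosome 10, over Nkain2, had 4 and 22, a KO-kept share of 2.60%. With each chromosome cut into 10 equal segments, the share of KO-kept bins was lowest in the segment next to the centromere (8.82%) and at most 10.6% elsewhere. Within 20 kb of a KO-kept run there was a het-kept bin in 21.1% of cases and another KO-kept run in 40.6%. KO-kept runs were also the more numerous, with 19436 against 9463 het-kept runs. No background share was computed, so whether KO-kept runs lie close to one another was not tested.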

How the data were processed

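H3K9me3 ChIP-seq of gonocytes was used as 8 peak lists that the authors deposited, with chromosome, start and end and no score. Per the submitters' processing notes, bcl2fastq 2.20, cutadapt 1.18, Bowtie2 2.3.4.1, deepTools 3.5.0, HOMER 4.10 and the mm10 build were used. The peak threshold, control, depth and handling of replicates are not given in the sources used here. Each list names an age and a genotype and was treated as 1 call set.

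Peaks on the 19 autosomes were merged within a list, and covered base pairs were counted in 1 kb bins with Python 3.11.15, numpy 2.4.6 and pandas 2.3.3. The counting was tested on simulated lists in which a site had the same borders in every list that held it. Borders that differ between lists were not simulated. Shares are given with their range over autosomes or a 95% Wilson interval, which covers counting error and treats neighbouring bins as independent. No test between genotypes was made. Gene positions, promoters and miRNAs came from RefSeq for GRCm38.p6, the same assembly as mm10. Text names the 12 longest runs (1 of them is not reported here), the 12 genes with the most KO-kept bins, 8 further genes of at least 20 kb by share, the 5 windows of 1 Mb at each extreme (in part), and gene family lists. The members and lists were chosen with earlier results of these data known. Alternatives were bin thresholds of 25% and 75%, a grid shifted by 500 bp, 500 bp bins, peaks of at least 2 kb, equal peak numbers and, added after seeing the data, equal covered lengths.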

Additional observations from a re-analysis of the deposited data

Results flagged for a closer look

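The X chromosome was left out of the rule for KO-kept bins, and the same pattern was present there. Of 12248 X chromosome bins called in both P0 lists, 1956 (15.97%) were called at P3 in KO only and 832 in het only, a ratio of 2.35. No autosome reached this share, the highest being 10.5% on chromosome 19. The Y chromosome had 29 such bins of 149. Of the 12248 X chromosome bins, 6472 were kept in both and 2988 lost in both, against 74.5% and 11.1% on the autosomes. A smaller share of X chromosome bins was thus kept in both, and each other class had a larger share, not KO-kept bins alone. These differences between the X chromosome and the autosomes were not tested.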

How the results depend on the processing

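No paired analysis was possible because each group had 1 list and no list carries a replicate number; replicates could not be left out for the same reason. All values here rest on call positions alone, so depth and threshold differences between lists cannot be told apart from differences in the mark. Bins of 500 bp gave 50905 KO-kept and 25342 het-kept bins, since each bin is shorter. KO-kept bins per het-kept bin were 2.03 at a 25% threshold, 1.85 with equal peak numbers, 1.41 with equal length (the 4 postnatal lists reduced to the shortest of them, and the 4 embryonic lists likewise, which removed much of the E16.5 lists) and 1.20 with equal length within each age. The share with no embryonic call was 29.7% (25%), 27.0% (75%), 24.4% (peaks of at least 2 kb), 31.6% (equal numbers), 39.7% (equal length) and 27.1% (equal length within each age). The E16.5 difference, het minus KO, was 4.58 points with peaks of at least 2 kb, 3.08 with equal numbers, 0.645 with equal length within each age, and reversed to -0.202 points with equal length. Runs of at least 3 kb made up 5.65% (25%), 6.74% (75%), 2.28% (500 bp bins), 20.3% (peaks of at least 2 kb), 5.41% (equal numbers), 7.64% (equal length) and 6.30% (equal length within each age) of KO-kept runs. Runs with no P3 het call beside them were 34.2% (25%), 34.6% (75%), 26.5% (500 bp bins), 34.2% (peaks of at least 2 kb), 28.2% (equal numbers), 10.3% (equal length) and 19.5% (equal length within each age). Bins in a protein-coding gene were 23.2% (25%), 20.4% (75%), 18.9% (peaks of at least 2 kb), 19.0% (equal length) and 20.9% (equal length within each age). KO-kept bins outnumbered het-kept bins under each setting, and the causes of these changes were not tested.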
